A study of Mus musculus with 12 samples.

Results

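Transcripts of 5 poly(ADP-ribose) polymerase (PARP) genes tied to the interferon response, Parp9, Parp10, Parp11, Parp12 and Parp14, and of Dtx3l, the ubiquitin ligase partner of Parp9, were followed in cultured mouse oligodendrocyte precursor cells (OPCs). Parp1 and Parp2, which act in DNA repair, were read beside them as a reference. The 8 genes were taken by symbol from the 55536 genes of the annotation, and all 8 passed the filter on low counts that left 18995 genes for testing.

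The RNA-seq data comprised 12 bulk libraries of Sox10GFP+ OPCs from the brains of pups at P4 to P6, with 3 replicates in each of 4 groups. Ctr cells received neither agent. EZH2i cells received the EZH2 inhibitor EPZ011989 at 1.5 uM for 4 days, renewed every 48 h, IFN-γ cells received 100 ng/ml IFN-γ for 6 h, and IFN-γ + EZH2i cells received both. All cells came from Sox10:Cre-RCE:LoxP(EGFP) mice, in which Cre driven by the Sox10 promoter leaves GFP in oligodendrocyte lineage cells, and the Ctr cells carry these alleles too. Several brains were pooled per culture, and the protocol names either GFP sorting or CD140a beads without saying which was used for a given library. The labels also give EAE as the mouse model for these pup-derived cultures.

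PARP enzymes take ADP-ribose from NAD+ and attach it to proteins or nucleic acids. Parp1 and Parp2 build chains at broken DNA, whereas Parp10, Parp11, Parp12 and Parp14 attach single ADP-ribose units. Parp9 has little or no such activity alone and works as a heterodimer with Dtx3l. Many of the mono-ADP-ribosylating members carry macrodomains or zinc fingers, are induced by interferons, and act in antiviral defense. IFN-γ acts on its targets through GAS elements, and it induces Irf1, which binds ISRE elements.

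Library totals ranged from 17403896 to 66546017 counts. The treatment could be read in Irf1, which stood at 11.98 ± 0.410 CPM in Ctr and 951.0 ± 116 CPM with IFN-γ (mean ± SD, n = 3). CPM are counts scaled to the library total with TMM factors. Ezh2 mRNA, whose protein is the inhibitor's target, stood at 49.4 ± 5.21 CPM in Ctr and 39.6 ± 7.66 CPM with EZH2i. The 6 OPC markers (Pdgfra, Cspg4, Sox10, Olig1, Olig2 and Gpr17) were all detected, and their summed level was 5739 to 6128 CPM in Ctr, 4795 to 5236 with EZH2i, 3421 to 4752 with IFN-γ and 2607 to 3163 with both. The 8 microglia and macrophage markers summed to 0.678 to 1.69 CPM over all 12 libraries, with 3 of them at or under 3 counts in every library and C1qa at 0 throughout. Neuron markers (4 genes) summed to 14.1 to 14.996 CPM in Ctr, 27.1 to 43.0 with EZH2i, 16.4 to 22.8 with IFN-γ and 32.1 to 58.1 with both. Astrocyte markers (4 genes) summed to 194 to 455 CPM in Ctr, 345 to 725 with EZH2i, 192 to 601 with IFN-γ and 361 to 903 with both. Mature oligodendrocyte markers (4 genes) summed to 183 to 225, 88.6 to 188, 169 to 226 and 105 to 193 CPM in the same order.

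IFN-γ raised all 6 interferon-linked genes, from 4.19-fold for Parp11 to 415-fold for Parp14, and left Parp1 and Parp2 without a detected change. Each of the 6 passed an adjusted p under 0.05 (edgeR quasi-likelihood test, Benjamini-Hochberg over all tested genes), against 8.75% of all tested genes called in either direction and 6.65% called higher. In each of the 6, all IFN-γ libraries lay above all Ctr libraries, as they did in 13.5% of tested genes. The median log2 fold change of the 6 was 6.07, beside 0.001 over all tested genes. In bulk RNA, a change in RNA per cell and a change in the share of cells that express a gene cannot be told apart. Of the 6 OPC markers, Pdgfra and Cspg4 were called lower with IFN-γ (edgeR), where 2.1% of all tested genes were called lower. Olig1, Olig2, Gpr17 and Sox10 did not pass, and Sox10 stood at 459 ± 162 CPM in Ctr and 485 ± 350 CPM with IFN-γ. The part of the fall in the summed level of these markers in the differences above was not tested.

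**Figure D1:**
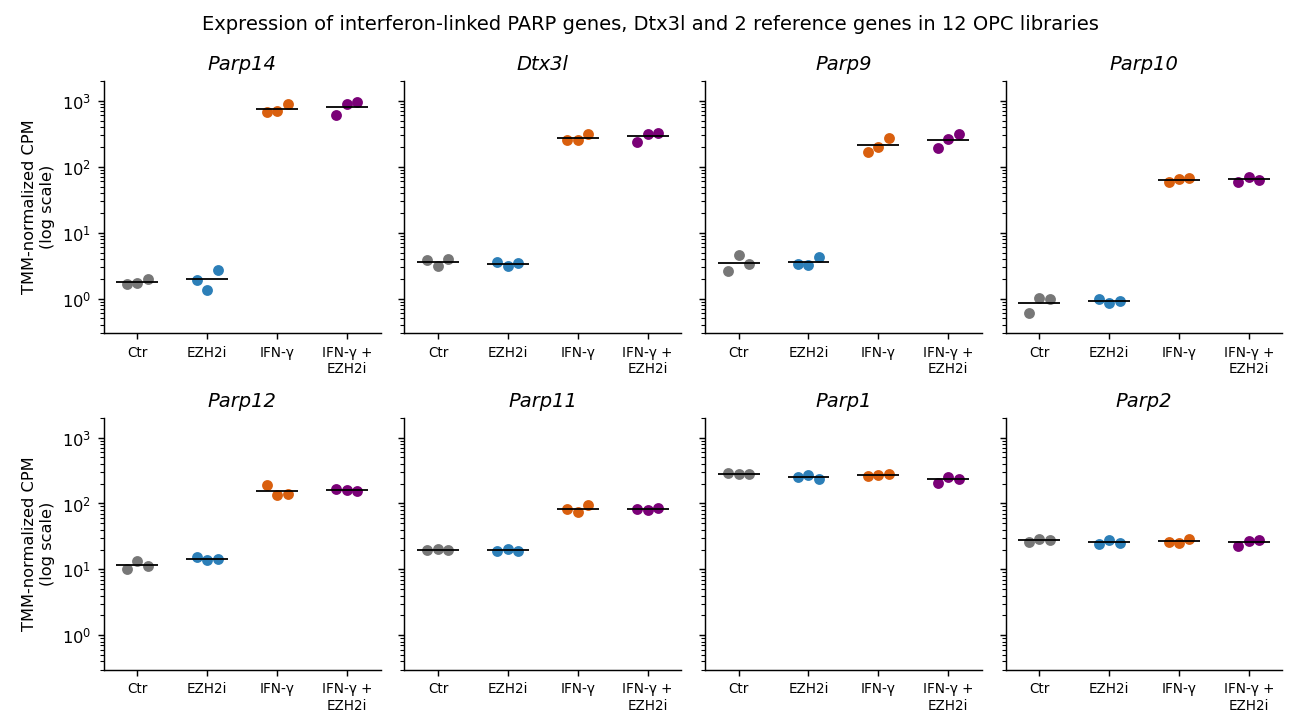
TMM-normalized CPM on a log axis for each of the 8 genes, with 1 point per library (3 per group) and a line at the group mean. Parp14 rose from 1.67 to 1.99 CPM in Ctr to 676 to 890 CPM with IFN-γ, and the Ctr and IFN-γ libraries overlapped for Parp1 and Parp2.

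Parp14, a macrodomain mono-ADP-ribosyltransferase that acts in cytokine signaling, showed the largest rise of the set and the highest count after it. Its Ctr libraries held 1.67, 1.75 and 1.99 CPM, which rests on 47, 31 and 117 counts. The IFN-γ libraries held 676, 699 and 890 CPM. The log2 fold change was 8.70 (SE 0.31, adjusted p = 2.64e-09, edgeR quasi-likelihood test), the 44th highest of the 18995 genes tested. Libraries of one group lay close together beside this step. The EZH2i libraries held 1.93, 1.34 and 2.70 CPM, and those with both agents 621, 885 and 956 CPM. The log2 fold change there was 8.66 (SE 0.31, adjusted p = 2.58e-09, edgeR).

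Dtx3l, an E3 ubiquitin ligase of the Deltex family, and Parp9, its macrodomain partner, lie head to head on chromosome 16. In the GRCm38 annotation Parp9 occupies chr16:35938470-35972605 on the plus strand and Dtx3l chr16:35926511-35939151 on the minus strand, so that their 5′ ends overlap by 682 bases. Parp14 lies near them, at chr16:35832874-35871544 on the minus strand. The library kit was stranded, but a wrong assignment of reads inside the 682 bases cannot be checked from transcript estimates.

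Dtx3l was counted at 3.79, 3.16 and 3.92 CPM in Ctr and at 254, 256 and 316 CPM with IFN-γ. Its log2 fold change of 6.24 (SE 0.18, adjusted p = 4.80e-10, edgeR quasi-likelihood test) corresponds to 75.3-fold. Parp9 was counted at 2.59, 4.57 and 3.36 CPM in Ctr and at 168, 201 and 274 CPM with IFN-γ, and its log2 fold change was 5.96 (SE 0.29, adjusted p = 4.44e-08, edgeR). For both genes the libraries of one group varied by less than 2-fold while the groups lay more than an order of magnitude apart. With EZH2i, Dtx3l went from 3.61, 3.12 and 3.43 to 239, 309 and 331 CPM and Parp9 from 3.32, 3.26 and 4.25 to 195, 260 and 319 CPM. The corresponding log2 fold changes were 6.43 (SE 0.18) and 6.15 (SE 0.29), again with no overlap between groups.

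As the protein pair forms a complex, the ratio of Dtx3l to Parp9 transcripts was read within each library in TPM, which corrects for length. It was 0.874, 0.390 and 0.715 in Ctr, 0.680, 0.509 and 0.431 with EZH2i, 0.716, 0.649 and 0.564 with IFN-γ, and 0.556, 0.589 and 0.505 with both. The spread was widest in Ctr, where the counts are low, and the groups overlapped. The mean log2 ratio differed by 0.04 between libraries with and without IFN-γ (exact permutation test within EZH2i strata, two-sided p = 0.83, smallest possible 0.005, n = 6 against 6). With CPM in place of TPM the difference was 0.29 (same exact test, p = 0.12), so that its size depends on the unit. Neither passed the threshold. The test took no account of the replicate number, although each number occurs in all 4 groups.

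The split of Parp9 RNA among its transcripts was also read in each library. Parp9-203 and Parp9-201 start at bases 35938470 and 35939011, both inside the span of Dtx3l on the other strand. Parp9-203 made up 50.4, 67.7 and 43.8% of Parp9 TPM in Ctr and 14.04, 16.1 and 15.4% with IFN-γ. Parp9-201 made up 23.7, 15.6 and 44.3% in Ctr and 62.0, 62.7 and 61.7% with IFN-γ. In mean TPM both rose, Parp9-203 from 0.451 in Ctr to 9.98 with IFN-γ and Parp9-201 from 0.224 to 40.5. Parp9-205, annotated as a retained intron, made up 0, 11.6 and 0% in Ctr and 16.7, 11.2 and 13.2% with IFN-γ. The shares of Parp9-203 and Parp9-201 came together among the stimulated libraries, and the 2 groups did not overlap for either of them. How often transcripts of other genes do so was not counted. With EZH2i the mean share of Parp9-201 was likewise 28.2% without and 61.7% with IFN-γ. These shares are given with no test, since the Ctr estimates for Parp9-201 rest on 12.2 to 81.4 estimated counts.

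Parp10, a mono-ADP-ribosyltransferase with ubiquitin-binding motifs, was the least abundant of the 6 in counts. It stood at 0.603, 1.02 and 0.984 CPM in Ctr, from 17 to 58 counts per library, and at 58.6, 64.7 and 67.0 CPM with IFN-γ. The IFN-γ libraries were close to one another and far above every Ctr library. The log2 fold change was 6.18 (SE 0.20, adjusted p = 8.49e-10, edgeR quasi-likelihood test), and 6.13 (SE 0.19) with EZH2i, where Parp10 went from 1.00, 0.849 and 0.911 to 58.5, 71.1 and 63.3 CPM. With length-scaled TPM in place of the counts the values were 5.61 and, with EZH2i, 5.32, both still past the threshold. Parp10 (chr15:76231174-76243441, minus strand) shares 1401 bases with Plec on the same strand, so some of its low Ctr counts could belong to that gene, which was not tested. Only the transcript Parp10-205 reaches base 76231174, and all others lie at base 76233003 or above. Its mean share of Parp10 TPM was 32.8% in Ctr and 54.7% with EZH2i, but 6.68% with IFN-γ and 8.38% with both. With EZH2i alone the TPM of Parp10 thus rested in large part on this transcript. In Ctr the mean share of Parp10-201 was similar, at 34.7%.

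Parp12, a zinc finger PARP of the antiviral group, started from a higher level and rose less. Its Ctr libraries held 10.1, 13.4 and 11.1 CPM and its IFN-γ libraries 188, 134 and 140 CPM. The difference was 3.74 on the log2 scale (SE 0.16, adjusted p = 1.40e-08, edgeR quasi-likelihood test), or 13.4-fold. With EZH2i it went from 15.7, 13.9 and 14.3 to 167, 157 and 155 CPM, and the log2 fold change was 3.45 (SE 0.16). The unstimulated libraries were higher with EZH2i than without, as in 7.37% of tested genes, and this did not pass the threshold (adjusted p = 0.669, edgeR). The stimulated libraries overlapped.

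Parp11, a mono-ADP-ribosyltransferase of the nuclear envelope that acts on the type I interferon receptor pathway, showed the smallest rise of the 6. Ctr libraries held 19.5, 20.5 and 19.9 CPM, the highest unstimulated level among the 6, and IFN-γ libraries 83.7, 73.0 and 94.3 CPM. The log2 fold change was 2.07 (SE 0.12, adjusted p = 1.38e-07, edgeR quasi-likelihood test). With EZH2i, the levels were 18.7, 20.7 and 19.2 CPM without and 81.9, 79.4 and 85.7 CPM with IFN-γ, and the log2 fold change was 2.08 (SE 0.12).

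Parp11 (plus strand, chr6:127446840-127494261) is annotated with 10 transcripts. RefSeq gives 2 start sites on GRCm38.p6, at base 127446840 (upstream) and at base 127453627 (downstream) of chromosome 6. Within 200 bases of these begin 1 and 5 of the transcripts, and the other 4 begin elsewhere. The 250 bases before each are shown because the upstream one holds letters of both interferon elements and the downstream one holds neither. Capitals mark a stretch in which an ISRE (GAAA, any 2 bases, then GAAACT, here on the opposite strand, bases -46 to -35 from the start) and a GAS (TTCNNNGAA, bases -37 to -29) overlap by 3 bases.
Parp11 upstream, chr6:127446590-127446839: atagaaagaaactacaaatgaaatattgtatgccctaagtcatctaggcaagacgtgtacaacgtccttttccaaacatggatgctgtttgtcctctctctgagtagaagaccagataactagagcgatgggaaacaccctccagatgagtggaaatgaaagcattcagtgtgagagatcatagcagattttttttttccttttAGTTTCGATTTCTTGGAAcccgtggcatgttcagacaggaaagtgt
Parp11 downstream, chr6:127453377-127453626: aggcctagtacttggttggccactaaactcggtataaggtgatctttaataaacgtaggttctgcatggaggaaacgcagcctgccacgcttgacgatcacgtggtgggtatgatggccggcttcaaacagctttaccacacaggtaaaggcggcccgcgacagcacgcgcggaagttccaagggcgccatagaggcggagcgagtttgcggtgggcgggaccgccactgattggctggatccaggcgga

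Windows of 300 bases, from 250 before to 50 after a start, were searched on both strands in 32817 RefSeq promoters. The 12-letter ISRE was present in 0.271% of them, the GAS in 8.29%, and both in 12 windows, 1 of which is the upstream Parp11 window. The shorter ISRE core (GAAA, any 2 bases, GAAA, which lies inside the longer one) was present in 3.43%. Windows were given for 5 of the 8 genes, and those of Parp12, Dtx3l, Parp1 and Parp2 held none of the 3 motifs. Parp9, Parp10 and Parp14 had no entry. A match is a description of letters, and its absence from a window says nothing about binding elsewhere.

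Parp11-202, the transcript of the upstream start, was at or near 0 in Ctr and present in every IFN-γ library. It was estimated at 0.01, 0 and 3.12 counts in Ctr and at 449.8, 576.6 and 1404 counts with IFN-γ. Its share of Parp11 TPM was at most 0.135% in the Ctr libraries and 12.3, 13.2 and 15.4% in the IFN-γ libraries. With EZH2i alone it was estimated at 96.0 counts in replicate 1, which is 8.46% of the gene, and at about 0 in the others. With both agents the share was 9.42, 17.5 and 10.97%. EZH2i replicate 1 thus stood apart from the other unstimulated libraries.

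The 5 transcripts of the downstream start were higher with IFN-γ as well. Their summed level was 6.22, 9.23 and 7.93 TPM in Ctr and 21.2, 20.1 and 20.2 TPM with IFN-γ, a ratio of means of 2.63. With EZH2i it was 8.59, 9.02 and 7.70 TPM without and 22.6, 18.9 and 16.2 TPM with IFN-γ, a ratio of 2.28. The groups did not overlap, and these 5 still held most of the Parp11 TPM in stimulated cells. The 4 transcripts that begin elsewhere summed to 0.353 to 1.70 TPM in Ctr and 2.81 to 6.41 TPM with IFN-γ. These splits rest on transcript estimates from reads that the isoforms largely share and were not tested.

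**Figure D2:**
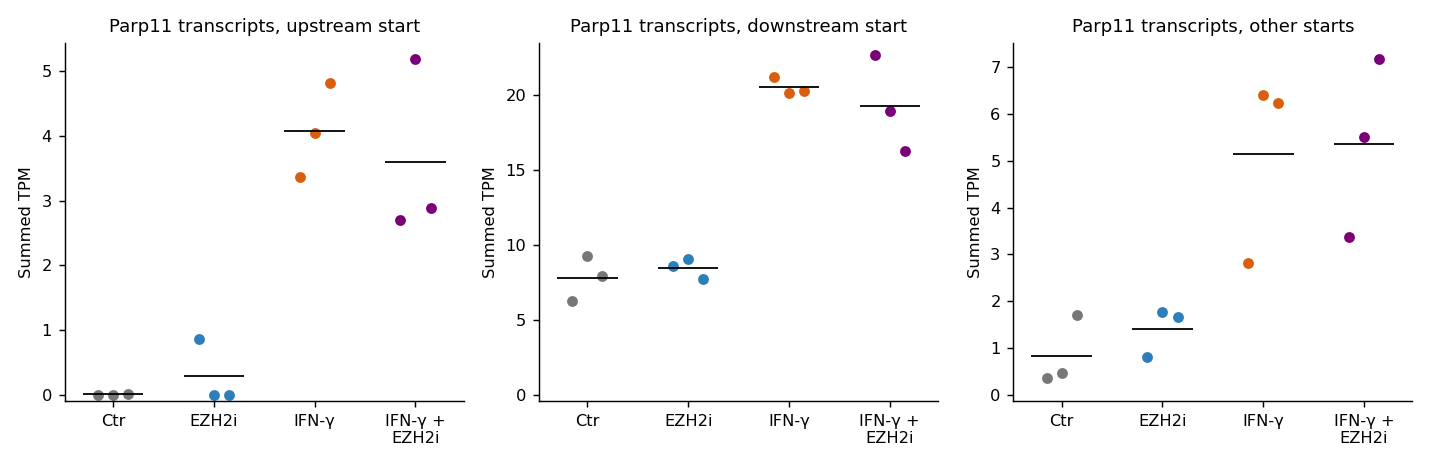
Summed TPM of Parp11 transcripts that begin at the upstream start (left, 1 transcript), at the downstream start (middle, 5 transcripts) and elsewhere (right, 4 transcripts), with 1 point per library and a line at the group mean. The upstream start lies at or near 0 without IFN-γ except in EZH2i replicate 1 (0.868 TPM), and the downstream start goes from 6.22 to 9.23 TPM in Ctr to 20.1 to 21.2 TPM with IFN-γ.

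Parp1, which detects DNA strand breaks, was counted at 286, 276 and 276 CPM in Ctr and at 258, 267 and 278 CPM with IFN-γ. Parp2, its close relative, stood at 25.9, 28.6 and 28.1 CPM in Ctr and at 25.6, 25.4 and 29.3 CPM with IFN-γ. The groups overlapped for both. The log2 fold changes were -0.06 for Parp1 (95% interval -0.29 to 0.17, adjusted p = 0.848) and -0.04 for Parp2 (-0.31 to 0.23, adjusted p = 0.924; edgeR quasi-likelihood test). In EZH2i-treated cells the values were -0.12 (-0.36 to 0.11) and -0.004 (-0.27 to 0.27), and changes beyond these bounds lie outside the intervals.

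The comparison of IFN-γ + EZH2i with EZH2i used libraries not shared with that of IFN-γ with Ctr. Both came from the same fit of all 12 libraries, so it was not an independent repeat. It gave the same 6 genes higher, against 8.07% of genes called in either direction and 5.9% called higher (edgeR; 19.3% in either direction with the replicate number as a block, which kept all 6). All 6 again had no overlap between groups, which 11.8% of genes showed in this direction. Their median log2 fold change was 6.14, beside 0.002 over all tested genes. The order of the rises was Parp14, then Dtx3l, Parp9 and Parp10, then Parp12, then Parp11 in both comparisons, apart from the order inside the middle 3. To compare neighbours, the log2 difference between the 2 genes was taken within each library. Among Dtx3l, Parp9 and Parp10 these differences overlapped between IFN-γ and Ctr libraries. Parp14 exceeded Dtx3l by 2.46 on the log2 scale in cells without EZH2i (SE 0.10), and Parp12 exceeded Parp11 by 1.67 (SE 0.20), with no overlap between the groups in either case.

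**Figure D3:**
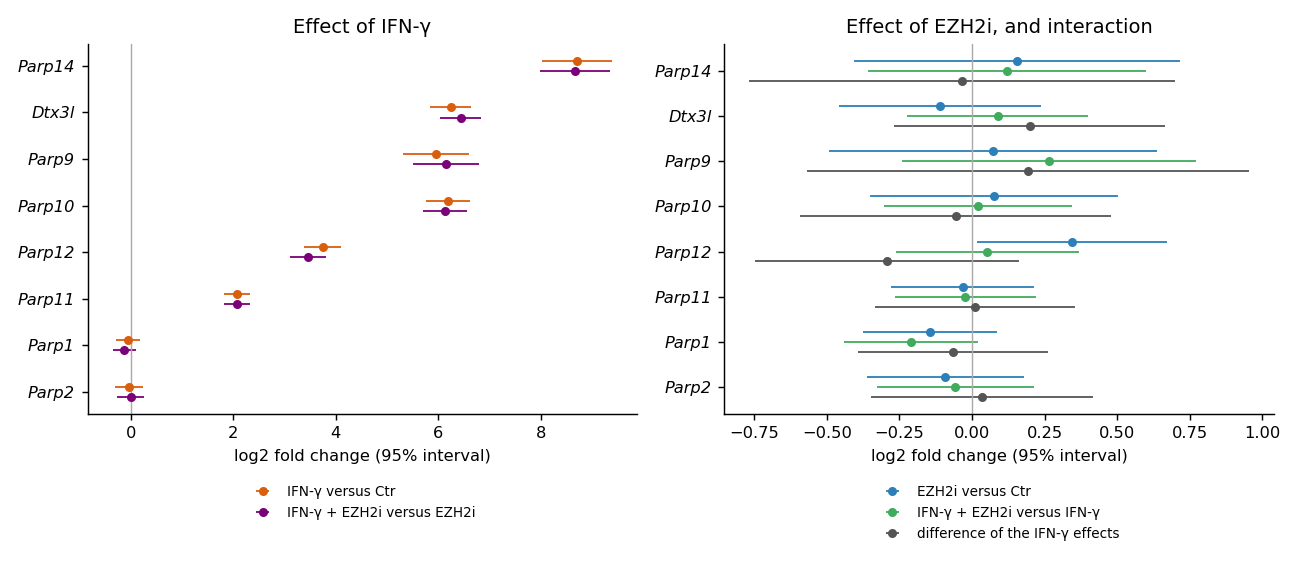
Log2 fold change of each gene with its 95% interval from the edgeR fit of all 12 libraries, for the IFN-γ effect without and with EZH2i (left) and for the EZH2i effect without and with IFN-γ and the difference of the 2 IFN-γ effects (right). The 6 interferon-linked genes lie between 2.07 and 8.70 on the left, and the points on the right lie between -0.29 and 0.34.

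Levels of different genes were compared in TPM. The small RNAs Rn7s1, Rn7s2, Rn7sk and Rpph1 took 52.8 to 70.3% of TPM depending on the library, so TPM values of mRNAs are low and shift between libraries together. In Ctr, Parp1 was the most abundant at 52.1 ± 11.3 TPM, followed by Parp2 at 14.3 ± 3.85, Parp11 at 8.63 ± 1.79 and Parp12 at 2.75 ± 0.776 TPM (SD, n = 3). Parp9, Dtx3l, Parp10 and Parp14 followed at 0.809, 0.484, 0.320 and 0.194 TPM. From Parp1 down to Parp9 no neighbours in this order overlapped, and from Parp9 down to Parp14 all did.

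With IFN-γ, Parp14 headed the order at 83.2 ± 12.4 TPM, with Parp9 at 65.3 ± 14.4 and Parp1 at 58.6 ± 7.93 TPM (SD, n = 3), each overlapping with the next. Parp12 at 42.7 ± 5.29 and Dtx3l at 41.2 ± 4.67 TPM could not be separated. Parp11 stood at 29.7 ± 2.09 TPM, above Parp10 at 16.8 ± 2.12 and Parp2 at 16.3 ± 2.73 TPM, which overlapped. Parp14 thus went from the lowest mean of the set to the highest.

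Within each library, the summed TPM of the 6 interferon-linked genes was set against that of Parp1 and Parp2. The ratio was 0.188, 0.220 and 0.187 in Ctr and 0.236, 0.200 and 0.239 with EZH2i. It was 3.79, 3.44 and 3.99 with IFN-γ and 4.62, 4.25 and 5.32 with both agents. The 6 genes were a small fraction of the DNA-repair pair before stimulation and exceeded it several-fold after. The 2 stimulated groups did not overlap in this ratio. However, the summed TPM of the 6 genes was alike, at 279 ± 29.6 with IFN-γ and 281 ± 31.3 with both agents. That of Parp1 and Parp2 was 74.8 ± 9.65 and 60.1 ± 10.7 TPM (SD, n = 3). TPM values shift between libraries together, so these sums do not tell which part of the ratio differed. Each of these sums overlapped between the groups. The ratio was not tested.

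The EZH2 inhibitor alone did not change any of the 8 genes past the threshold (edgeR quasi-likelihood test, adjusted p under 0.05, with 0.405% of all tested genes called, each of them higher). DESeq2 called none of the 8 either, and 1 of the 6 interferon-linked genes had an unadjusted p under 0.05 in edgeR. That gene was Parp12, with 10.1, 13.4 and 11.1 CPM in Ctr and 15.7, 13.9 and 14.3 CPM with EZH2i. The log2 fold change was 0.34 (SE 0.15, adjusted p = 0.669, edgeR). All EZH2i libraries lay above all Ctr libraries, as they did in 7.37% of tested genes. Parp1 went the other way with no overlap, at 255, 270 and 232 CPM with EZH2i and a log2 fold change of -0.15 (SE 0.11, adjusted p = 0.939, edgeR), a separation seen in this direction in 5.34% of genes. For Parp9, Parp10, Parp11, Parp14 and Dtx3l the groups overlapped, and the widest 95% interval, that of Parp14, ran from -0.41 to 0.72 on the log2 scale.

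In cells given IFN-γ, adding the inhibitor again moved none of the 8 past the threshold (edgeR, 0.353% of tested genes called), and DESeq2 called none of them. None of the 6 interferon-linked genes had an unadjusted p under 0.05, and all 6 overlapped between the groups. The largest difference among the 6 was in Parp9, 168, 201 and 274 CPM against 195, 260 and 319 CPM, higher with both agents in each replicate number. Its log2 difference was 0.27 (SE 0.23, adjusted p = 0.999, edgeR quasi-likelihood test). Same-numbered libraries of these 2 groups deviated together, and in a fit of only these 6 libraries with the replicate number as a block, added after the data were seen, Parp9 passed at 0.26 (SE 0.06, adjusted p = 0.0369, edgeR), against 5.2% of genes called higher in that fit. With the block in all 12 libraries it did not pass (adjusted p = 0.295, edgeR, with 3.94% of genes called).

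Parp1 was lower with both agents than with IFN-γ alone, at 208, 253 and 234 CPM against 258, 267 and 278 CPM. The groups did not overlap, as in 4.26% of tested genes in this direction. The log2 difference was -0.21 (SE 0.11, adjusted p = 0.838, edgeR quasi-likelihood test; adjusted p = 0.217 with the replicate block), which did not pass. In the fit of only these 6 libraries with the block, added after the data were seen, it was -0.22 (SE 0.06, adjusted p = 0.0687, edgeR). The summed level of the OPC markers was also lowest in the libraries with both agents, and its part in the Parp1 values was not tested.

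The IFN-γ effect was compared between cells with and without EZH2i through the interaction term. It called no gene among all 18995 (edgeR quasi-likelihood test; 127 genes had an unadjusted p under 0.05, and DESeq2 called 0). For Parp11 the IFN-γ effects differed by 0.01 (95% interval -0.34 to 0.35) and for Dtx3l by 0.20 (-0.27 to 0.67). For Parp12 the effect was smaller with EZH2i by a difference of -0.29 (-0.75 to 0.16). For Parp14, Parp9 and Parp10 the differences were -0.03 (-0.77 to 0.70), 0.19 (-0.57 to 0.95) and -0.06 (-0.59 to 0.48). A change of the IFN-γ effect by more than about 2-fold in either direction lies outside each of these intervals, and smaller ones cannot be told from 0 in these data.

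Other genes of the PARP family moved too. Of the 9 others listed, 5 rose with IFN-γ, both with and without EZH2i, and none fell (edgeR, adjusted p under 0.05, and DESeq2 called 5 in each comparison too; 6.65% and, with EZH2i, 5.9% of all tested genes were called higher), with a list median of 0.62 on the log2 scale without EZH2i. Parp3, which acts in strand-break repair, went from 9.52 ± 0.966 to 198 ± 6.81 CPM. Its log2 fold change of 4.37 (SE 0.12, adjusted p = 2.98e-10, edgeR) was above the 3.74 of Parp12 and the 2.07 of Parp11. Zc3hav1, the zinc finger antiviral protein ZAP that binds CpG-rich viral RNA, went from 14.3 ± 2.88 to 107 ± 23.4 CPM (log2 fold change 2.91). Parp4, the vault-associated PARP, went from 0.933 ± 0.148 to 3.83 ± 0.337 CPM (2.01). Tiparp, an aryl hydrocarbon receptor target that feeds back on the receptor, and Parp8 rose by less, from 47.8 to 75.1 CPM (0.65) and from 51.7 to 79.6 CPM (0.62). Tnks and Tnks2, the tankyrases that modify axin and telomere proteins, stood at 148 and 250.3 CPM in Ctr and 147 and 248.96 CPM with IFN-γ, and Parp6 and Parp16 did not pass either. For the inhibitor, none of the 9 passed without or with IFN-γ in edgeR or DESeq2, and 1 had an unadjusted p under 0.05 in each case.

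**Figure D4:**
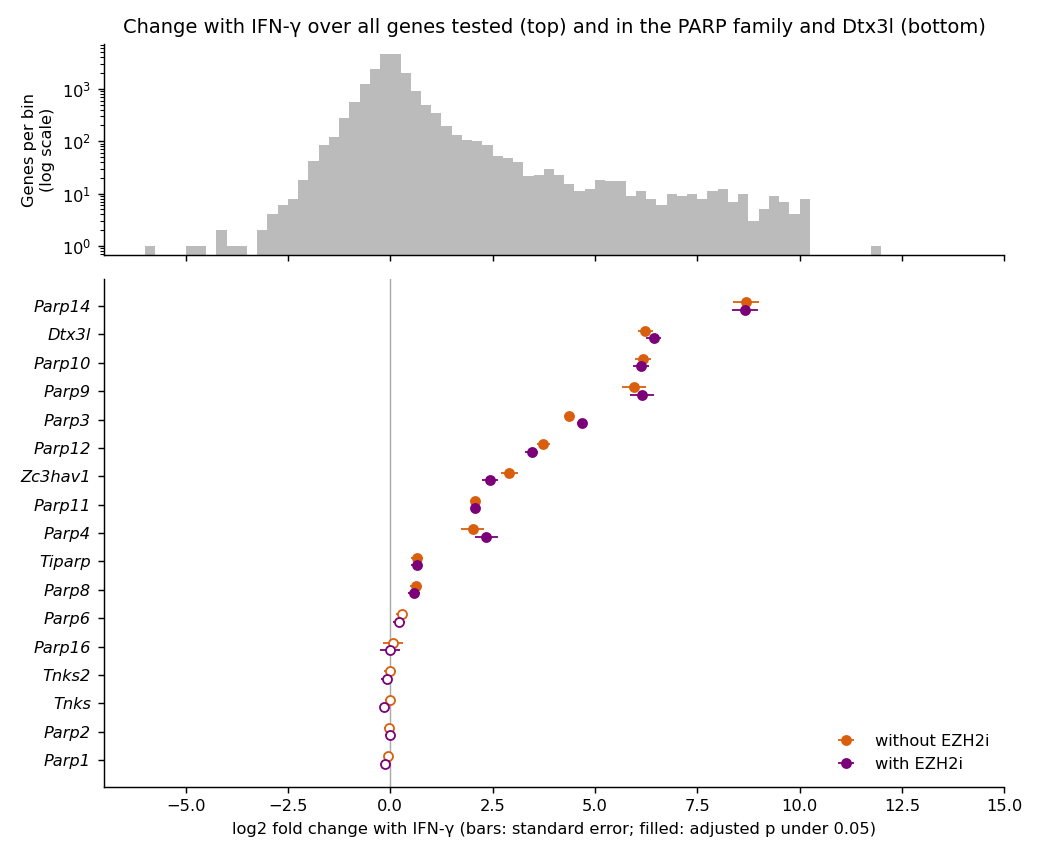
Top, histogram of the log2 fold change with IFN-γ against Ctr over all tested genes, in bins of 0.25 with counts on a log axis. Bottom, the same quantity for 16 PARP genes and Dtx3l without and with EZH2i (bars are standard errors, filled points have an adjusted p under 0.05 in edgeR), ordered by the value without EZH2i. Parp14 heads the family at 8.70 and 11 of the 17 genes are filled in both series.

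Among genes that remove ADP-ribose no call was made. Of 8 such genes (among them the chain-cleaving glycohydrolase Parg), 7 were tested and none was called in either IFN-γ comparison, where 8.75% and, with EZH2i, 8.07% of all tested genes were called. At such shares few or no calls fall in lists of this size, so nothing is read from their absence. In IFN-γ against Ctr, 1 of the 7 had an unadjusted p under 0.05 in edgeR, and in the EZH2i-treated cells 0 had. The 4 other Deltex genes, Dtx1 to Dtx4, also had none called. Of the 8 partners of Parp1 and Parp2 in strand-break repair, such as Xrcc1 and Lig3, none was called in either comparison. Of the 4 and of the 8, 1 each had an unadjusted p under 0.05 in IFN-γ against Ctr and 0 with EZH2i, and DESeq2 called none in these 3 lists.

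Of 13 genes for the supply and use of NAD, the substrate of all PARP enzymes, 10 were tested, 1 rose and 1 fell (edgeR; 6.65% of all tested genes were called higher and 2.1% lower). Nampt, the rate-limiting enzyme of NAD salvage from nicotinamide, went from 65.4 ± 8.71 CPM in Ctr to 303 ± 53.1 CPM with IFN-γ, with a log2 fold change of 2.21 (SE 0.18, adjusted p = 3.86e-06, edgeR quasi-likelihood test). Nmrk1, a nicotinamide riboside kinase, went from 6.46 ± 0.795 to 3.56 ± 0.383 CPM, with a log2 fold change of -0.86 (SE 0.22, adjusted p = 0.0305, edgeR). The same 2 genes were called in the same directions in EZH2i-treated cells, at 2.42 and -1.15, where 5.9% of tested genes were called higher and 2.17% lower. The list median without EZH2i was -0.20.

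For each interferon-linked gene, genes with the most similar profile were found among 14681 genes of at least 1 CPM, by the root mean square difference of gene-centred log2 CPM over the 12 libraries. Dtx3l was nearest to Irf1 (0.139), then Gbp7 and Rtp4. Parp9 was nearest to Gbp7 (0.285) and Parp10 to Slamf8 (0.233), Parp14 to Nlrc5 (0.298), Parp12 to Fgl2 (0.180) and Irf9 (0.180), and Parp11 to Csf1 (0.143). Parp9 and Parp10 were closer to each other (0.228) than to any of these. A near profile need not mean an equal fold change, since the pseudocount of 0.1 CPM shrinks steps from low levels. Slamf8 had a log2 fold change of 8.29 with IFN-γ against Ctr, beside 6.18 for Parp10. The neighbours named here all rose with IFN-γ (edgeR, adjusted p under 0.05), which this measure favours, since the 12 profiles are dominated by the IFN-γ step.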

How the data were processed

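Bulk RNA-seq of the 12 OPC libraries was used as deposited. Per the labels and the study's methods, the authors trimmed reads of a stranded total RNA library and quantified transcripts with Salmon 0.8.2 against mm10/GRCm38. The deposited estimated counts are Salmon's read numbers per transcript before scaling, and the deposited TPM values divide them by effective length and scale each library to a constant sum. The deposited DESeq2 tables hold the authors' own comparisons and were not used.

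Transcript estimates were added up per gene by the GENCODE gene models of GRCm38, which matched all 141862 transcripts, and then rounded. edgeR 4.0.16 in R 4.3.3 (TMM factors, default filter on low counts, quasi-likelihood test) was fitted to the 12 libraries together, with no covariate beside the group. P-values were adjusted by the Benjamini-Hochberg method over 18995 genes, with a threshold of 0.05. The median library held 33625880 counts. Replicates were described as separate litters with pooled brains. Motifs were searched in RefSeq promoter windows of GRCm38.p6.

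The 8 genes, the lists of related genes and the markers were chosen with earlier results of these data known. The rule names all 8 genes, list genes past the threshold (at most 5 per list, by adjusted p), Irf1 and Ezh2, and the 3 most similar genes per interferon-linked gene (pseudocount 0.1 CPM). Other genes were named after their values were seen. Alternatives were DESeq2 1.42.0, other normalization and filters, length-scaled TPM, a fold threshold, a replicate block, only the libraries compared, and each library left out.

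The replicate numbers were checked for pairing through the correlation of same-numbered deviations from group means. It was 0.530, 0.496 and 0.621 for IFN-γ + EZH2i with EZH2i and 0.604, 0.493 and 0.642 for IFN-γ + EZH2i with IFN-γ. Same-numbered libraries of these groups thus deviated together. In replicates 1, 2 and 3 the correlation was 0.490, 0.0854 and 0.544 for IFN-γ with Ctr. For EZH2i with Ctr it was 0.441, 0.0467 and 0.495, so that it was low only in replicate 2 of these comparisons. The main fit took no account of pairing in any comparison, and the replicate block was used only as an alternative. Not every gene that the rule names is reported here.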

Additional observations from a re-analysis of the deposited data

How the results depend on the processing

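All 240 alternative values of the IFN-γ effect on the 6 interferon-linked genes kept their direction and stayed past the threshold. The share of called genes, given as a percent of the 18995 genes of the main edgeR fit, moved more. It was 8.75%, 8.07%, 0.405% and 0.353% for IFN-γ against Ctr, IFN-γ + EZH2i against EZH2i, EZH2i against Ctr and IFN-γ + EZH2i against IFN-γ. A replicate block gave 21.2%, 19.3%, 4.06% and 3.94% in the same order, and the block in only the libraries compared gave 15.8%, 17.7%, 3.62% and 9.04%, with 1 of the 6 genes (Parp9) called in the last comparison. No other call on the 8 genes changed under the block. An absolute log2 fold change above 1 left 5.54% and 5.28% in the comparisons of IFN-γ. For EZH2i against Ctr, DESeq2 gave 1.56%, no filter 0.637%, at least 10 counts in every library 0.153%, length-scaled TPM 0.258% and only the libraries compared 0.174%. For IFN-γ + EZH2i against IFN-γ, DESeq2 gave 1.36%, the filter of 10 counts 0.0579%, length-scaled TPM 0.163% and only the libraries compared 0.0369%. With 1 library left out at a time, the 4 shares ran over 5.85 to 9%, 5.68 to 8.24%, 0.0579 to 0.437% and 0.0526 to 0.342%. The Dtx3l to Parp9 log2 ratio difference then ran from -0.13 to 0.16, with -0.13 without Ctr replicate 2 and -0.033 without EZH2i replicate 3. The causes were not tested.

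Signs turned only in values that passed no threshold. Length-scaled TPM turned IFN-γ against Ctr for Parp2 (0.019), EZH2i against Ctr for Parp14 (-0.0055) and Parp2 (0.048), IFN-γ + EZH2i against IFN-γ for Parp11 (0.048), the interaction for Parp14 (0.13) and Parp2 (-0.16). No filter on low counts turned the interaction for Parp11 (-0.011). Leaving out 1 library at a time gave values on both sides of 0 in IFN-γ against Ctr for Parp2 (-0.11 to 0.00091) and in IFN-γ + EZH2i against EZH2i for Parp2 (-0.076 to 0.066). The same held in EZH2i against Ctr for Parp9 (-0.091 to 0.28), Parp10 (-0.11 to 0.23) and Parp14 (-0.16 to 0.37). The same held in IFN-γ + EZH2i against IFN-γ for Parp10 (-0.061 to 0.079), Parp11 (-0.11 to 0.071), Parp12 (-0.038 to 0.22), Parp14 (-0.0065 to 0.28), Dtx3l (-0.011 to 0.21) and Parp2 (-0.12 to 0.014). The same held in the interaction for Parp9 (-0.013 to 0.41), Parp10 (-0.21 to 0.13), Parp11 (-0.082 to 0.10), Parp14 (-0.25 to 0.28), Parp1 (-0.14 to 0.0021) and Parp2 (-0.026 to 0.11). The log2 value of Parp10 in IFN-γ against Ctr ran from 5.61, with length-scaled TPM, to 6.34 over all alternatives, and the cause was not tested. Parp10 lay near 1 CPM without IFN-γ, so that its fold change rests on few counts there.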

Other observations

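The motif letters seen in the upstream Parp11 window were counted over all genes with a RefSeq window that were tested. Among genes with a 12-letter ISRE, 33 of 46 were called higher with IFN-γ against Ctr (edgeR quasi-likelihood test). Among genes with a GAS it was 120 of 981 (12.2%), and among genes with both it was 6 of 7. Among genes whose windows held neither, 790 of 11228 (7.04%) were called higher, beside 6.65% of all tested genes with or without a window. These counts describe letters and calls, with no test, and the search was made after the Parp11 values were seen. Parp11 itself is 1 of the 7 genes with both and 1 of the 6 called.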
